A study of Mus musculus with 15 samples.

Results

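Transcription in the ileum of 5 mice that were gavaged with medium mDP PAC was compared with that in 5 mice gavaged with water, 10 of the 15 mice of the study. The mice were chosen by their treatment labels alone, without use of any expression value. PAC are proanthocyanidins, polymers of flavan-3-ol units, and mDP is their mean degree of polymerization. The PAC of both treated groups came from grape pomace and were fractionated on Sephadex LH-20. The sample labels call the longer fraction high molecular weight PAC, and the study calls it medium mDP PAC, the name used here. All mice were female, of the strain C57BL/6 by the labels and C57BL/6JOlaHsd by the study, on a purified diet, and aged 8 weeks by the labels, while the methods give a younger age on arrival and 1 week of acclimatization. PAC were given in water at 200 mg/kg body weight every 2 days over 10 days, the control mice received water at the same times, and a further group of 5 mice received low mDP PAC. No infection and no engineered allele is given for any group. The labels give the tissue as intestinal and the study as ileum. Total RNA from 1 piece of each mouse was sequenced as 1 library, and such a piece holds epithelium, lamina propria, muscle and any lymphoid tissue at its site.

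The ileum is the last segment of the small intestine. Its enterocytes digest peptides and sugars at the brush border, absorb fat, sterols, amino acids and nucleosides, and recover bile acids with transporters that are specific to this segment. Enterocytes are replaced from dividing crypt cells and mature as they move up the villus. PAC are poorly absorbed, so that most of an oral dose passes along the epithelium and reaches the gut microbiota.

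Expression levels are given as FPKM, in which the authors scaled the fragments of a gene for transcript length and for the mapped fragments of the library. Differences are log2 fold changes (medium mDP PAC over water) from the edgeR quasi-likelihood test on expected counts, the estimated number of fragments of a gene. The threshold for a change was an adjusted p of 0.05 (Benjamini-Hochberg over the 14386 genes tested). Genes with an unadjusted p under 0.05 in edgeR are called nominally higher or lower, which does not mean that they changed. Functional groups were described with 61 lists that together hold 1176 members, where a gene that stands in several lists is counted in each. The lists leave out the 26 genes taken here as those that the study singled out for this comparison. Of the genes in the lists, 1039 were tested. The lists and their members were chosen with earlier results of these data known. Their member counts and medians therefore describe these mice and are not independent tests.

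The expected counts of the 10 mice summed to between 16402514 and 17903886. The summed FPKM of 8 genes typical of the distal ileum was 5802 and 5502 in water mice 4 and 5. It was 8455 to 8830 in the other water mice and 8068 to 12041 in the medium mDP PAC mice. That of 8 colon genes lay between 155 and 207 in the 10 mice. The part that the position of the pieces along the gut has in the results below was not tested. The distal ileum genes were led by Fabp6, the bile acid binding protein of ileal enterocytes. Of the 9 genes of the exocrine pancreas list, 1 was tested, the one that encodes colipase. Medium mDP PAC mouse 3 stood apart from the other mice. Its FPKM values summed to 677075 against 553090 to 565626 in the other 4 mice of the group, and short genes were high and long genes low in its library. Water mice 1 and 3 held less RNA of smooth muscle, enteric nerve and mesothelium genes, with a summed FPKM of smooth muscle genes of 507 and 457 against 1349.5 to 1443 in the other 3 water mice, while their endothelial genes were not low (128 and 117 against 104 to 117). These 2 mice were also the lowest water mice for fibroblast and matrix genes (464 and 410 against 564 to 655) and for Paneth cell genes (52726 and 33291 against 71702 to 77076.5). B cell genes summed to between 131 and 364 in water mice 1, 3 and 5 and medium mDP PAC mice 1 and 3, and to between 15.2 and 19.4 in the other 5 mice. Whether a piece held a Peyer's patch is not given in the labels. Results are therefore also given without medium mDP PAC mouse 3 and, where it matters, without water mice 1 and 3. The latter fit was chosen after seeing the data.

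With medium mDP PAC 2 genes fell at the adjusted threshold and 0 rose, and both encode intestinal transporters of purine compounds. They were 2 of 14386 genes tested (0.0139%), while 2128 genes (14.8%) had a nominal difference. Slc28a2 (gene 269346, GRCm38, chromosome 2, 122426477 to 122461137, plus strand) encodes the purine-selective concentrative nucleoside transporter that takes up nucleosides with sodium at the apical membrane, and it is one of the genes the study singled out. With water its FPKM was 52.3, 49.7, 48.7, 49.8 and 65.7 in mice 1 to 5, and with medium mDP PAC it was 21.1, 20.98, 25.1, 26.4 and 18.9. The groups did not overlap, and mouse 3 did not stand out. Slc28a2 fell by 1.34 on the log2 scale (standard error 0.16, adjusted p = 0.00449 with edgeR), from 53.2 ± 7.07 to 22.5 ± 3.13 FPKM (mean ± SD, n = 5). Without medium mDP PAC mouse 3 the log2 fold change was -1.33 (adjusted p = 0.0191).

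Slc23a4 (gene 243753, GRCm38, chromosome 6, 34945278 to 34988404, minus strand), which encodes a sodium-dependent nucleobase transporter of the rodent small intestine, was not among those 26 genes. Its FPKM was 12.4, 8.97, 12.2, 12.5 and 15.4 in the water mice and 5.43, 6.89, 6.29, 6.94 and 6.11 in the medium mDP PAC mice. Every treated mouse lay below every water mouse, and the spread within the treated group was small. Slc23a4 fell by 1.05 (standard error 0.13, adjusted p = 0.00449 with edgeR), and by a similar size without medium mDP PAC mouse 3 (log2 fold change -1.01, adjusted p = 0.0191). In the low mDP PAC group, which was set against the same water mice, Slc28a2 had a mean FPKM of 30.8 ± 8.47 and Slc23a4 of 8.58 ± 1.11 (SD, n = 5), both between the other groups. Without water mice 1 and 3 the log2 fold changes were -1.36 for Slc28a2 and -1.02 for Slc23a4, but with 3 water mice left neither passed (adjusted p = 0.0712 and 0.111), and 0 genes did in that edgeR fit, with 1127 of 14565 genes (7.74%) at an unadjusted p under 0.05.

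Npc1l1 (gene 237636, GRCm38, chromosome 11, 6211013 to 6230143, minus strand), the brush border protein through which cholesterol is taken up, did not pass the threshold with all mice in edgeR but passed it in the fit without medium mDP PAC mouse 3, as it also did there with the length trend removed. The water mice had an FPKM of 212, 184, 204, 257 and 233, and the medium mDP PAC mice of 121, 133, 51.4, 146 and 135. All treated mice lay below all water mice, and mouse 3 was far below the other treated mice. The log2 fold change was -0.98 with all 5 mice (adjusted p = 0.133 with edgeR and 0.00288 with DESeq2) and -0.76 without mouse 3 (adjusted p = 0.0191), with standard errors of 0.21 and 0.10. The edgeR fit without mouse 3 called 3 of 14455 genes (0.0208%), the pair of transporters and Npc1l1. The mean FPKM with low mDP PAC was 159 ± 14.1 (SD, n = 5). For each of these 3 genes the two-sided exact permutation test of 5 against 5 mice gave 0.0079, the smallest p that this design allows. Every gene without overlap between the groups gives this p, and all treated mice lay below all water mice for 93 genes (0.646%) and above them for 574 (3.99%). As the 3 genes were picked by their p in the same mice, the permutation test adds no separate support. In bulk tissue, fewer cells of a type and less RNA per cell cannot be told apart.

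The 3 genes that passed in either fit are shown with the 300 bases around their RefSeq start (250 before it and 50 after it, GRCm38.p6, 5′ to 3′ on the strand of the gene), so that a reader can see the sequence in front of the genes that moved. The Slc28a2 window is chr2:122426185-122426484 (plus strand), the Slc23a4 window chr6:34977950-34978249 (minus strand), which lies inside the GENCODE span of the gene, and the Npc1l1 window chr11:6230196-6230495 (minus strand). Capitals mark the letters of the GATA motif AGATAA, one of 3 motifs of intestinal transcription factors that were searched on both strands.
Slc28a2: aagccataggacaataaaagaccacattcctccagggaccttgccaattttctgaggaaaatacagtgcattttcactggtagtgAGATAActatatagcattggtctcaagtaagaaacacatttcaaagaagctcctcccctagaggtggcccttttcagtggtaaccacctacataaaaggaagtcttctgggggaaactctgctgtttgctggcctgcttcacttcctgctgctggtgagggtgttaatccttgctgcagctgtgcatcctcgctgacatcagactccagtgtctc
Slc23a4: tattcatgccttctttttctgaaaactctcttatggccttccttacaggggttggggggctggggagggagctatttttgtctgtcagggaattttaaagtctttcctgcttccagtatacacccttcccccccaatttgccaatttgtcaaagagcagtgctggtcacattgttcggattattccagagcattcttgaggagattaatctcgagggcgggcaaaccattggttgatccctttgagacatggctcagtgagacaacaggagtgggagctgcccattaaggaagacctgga
Npc1l1: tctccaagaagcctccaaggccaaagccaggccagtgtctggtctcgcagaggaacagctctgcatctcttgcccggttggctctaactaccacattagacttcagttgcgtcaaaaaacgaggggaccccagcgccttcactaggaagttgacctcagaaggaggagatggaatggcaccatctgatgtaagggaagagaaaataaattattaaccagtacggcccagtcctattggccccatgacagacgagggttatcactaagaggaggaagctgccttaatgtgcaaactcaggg
The GATA letters stood once in the Slc28a2 window, 165 bases before the start, and in neither of the other 2. Of 32544 promoter windows of this length, 11.2% held AGATAA, 4.47% held the HNF4 letters CAAAGTC and 2.77% the CDX letters TTTATGG on either strand. The last 2 motifs were in none of the 3 windows. A match describes the letters only and not a bound site.

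**Figure D1:**
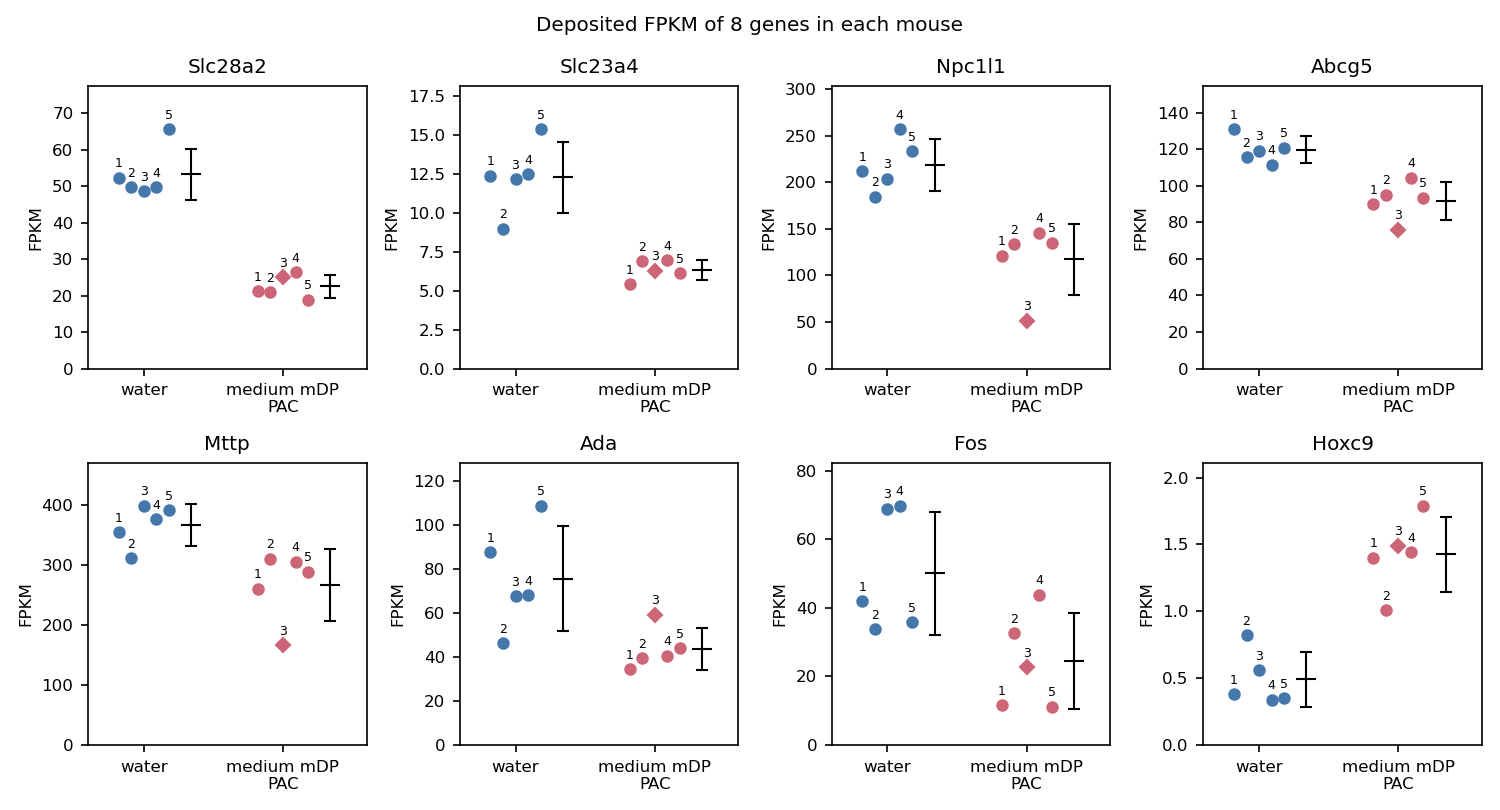
FPKM of 8 genes in each water and medium mDP PAC mouse, where the numbers are the mice, the diamond is medium mDP PAC mouse 3 and the bars are the mean and SD of 5 mice. Slc28a2 (18.9 to 26.4 with medium mDP PAC, 48.7 to 65.7 with water), Slc23a4, Npc1l1, Abcg5 and Mttp do not overlap between the groups, Hoxc9 lies above all water mice, and Ada and Fos overlap.

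Below the threshold, more genes were nominally lower (1500, 10.4%) than higher (628, 4.37%) with medium mDP PAC, but this split depended on mouse 3 and on the normalization. Without mouse 3, 813 of 14455 genes were nominally lower (5.62%) and 759 higher (5.25%). Upper-quartile normalization instead of TMM gave 816 lower genes (5.67%) and 1505 higher genes (10.5%), so that 64.8% of the nominal genes were higher in place of 29.5%, and with the RLE normalization this share was 42.7%. On the FPKM scale, with limma on log2(FPKM + 0.1), it was 81.1%. The median log2 fold change of all genes stayed near 0 under TMM (0.002 with all mice and 0.01 without mouse 3), and was 0.07 under upper-quartile normalization. DESeq2 gave an adjusted p under 0.05 to 144 lower genes (2.19% of the 6577 to which it assigned one) and to 23 higher genes (0.35%). The FPKM of all 5 treated mice lay below all 5 water mice for 93 genes (0.646%) and above them for 574 genes (3.99%).

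Gene length accompanied these counts. When the genes were divided into 10 bins by length, 29 of the 1440 genes of the shortest bin (282 to 1213 bases) were nominally lower (2.01%), and 342 of the 1439 genes of the longest bin (6229 bases or more) were (23.8%). Without mouse 3 the shares were 2.36% and 10.6%. The median shift against the water mice in mouse 3 was 0.49 on the log2 scale in the shortest bin and -0.33 in the longest. The slope of the log2 difference on log2 length was -0.230 in mouse 3 and between -0.0230 and 0.0185 in the other 4 treated mice. Between the groups the slope did not differ detectably over all genes tested (medium mDP PAC less water -0.0513, two-sided exact permutation p = 0.397, and -0.0066 without mouse 3, p = 0.794), but it did when genes averaging under 5 FPKM were left out (-0.0826, p = 0.0238). In the genes then left, the slope was -0.273 in mouse 3. It was -0.0424, -0.0559 and -0.0357 in treated mice 1, 2 and 5 and -0.0063 in treated mouse 4, against -0.0221 to 0.0415 in the water mice. When a smooth length trend was removed from every mouse, 1060 genes were nominally lower (7.37%) and 819 higher (5.69%), and the same 2 genes, Slc28a2 and Slc23a4, passed the adjusted threshold.

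**Figure D2:**
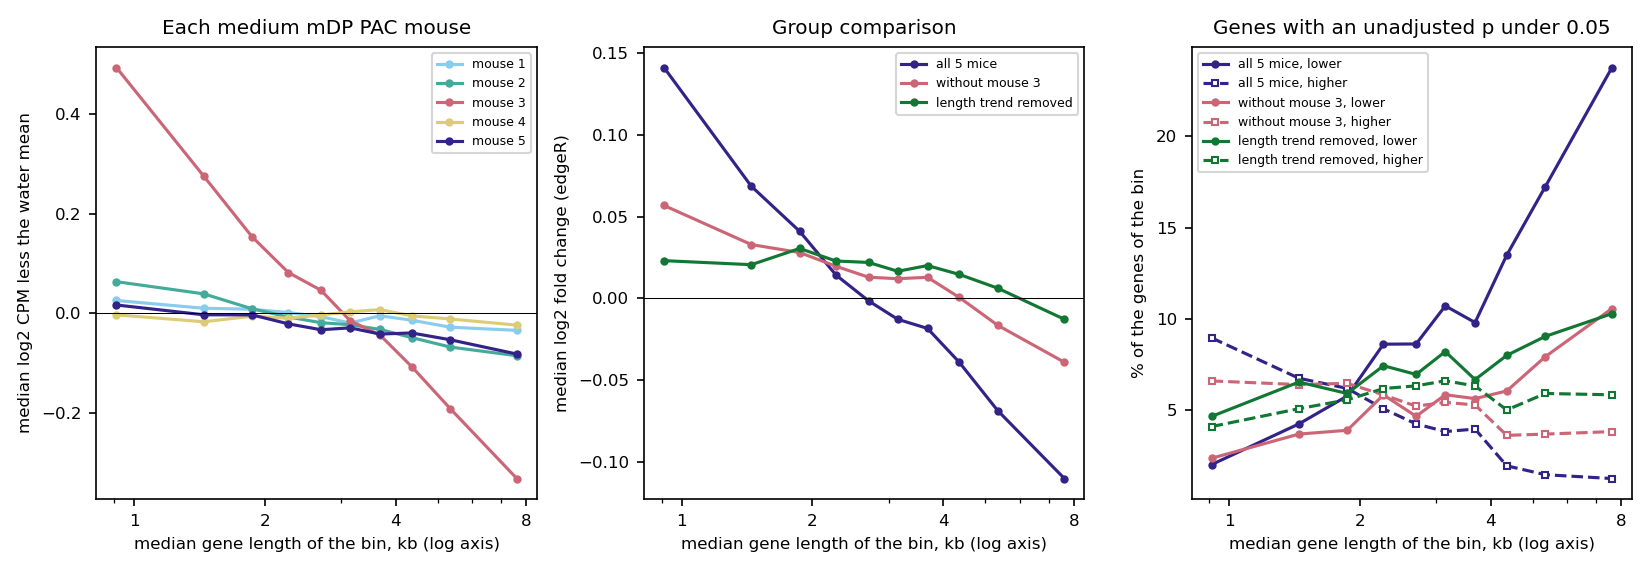
Median log2 difference from water in each treated mouse (left), median log2 fold change (middle) and the percentage of genes nominally higher or lower (right) over 10 bins of gene length (x axis, median transcript length in kb, log scale). On the left, the line of medium mDP PAC mouse 3 runs from 0.49 in the shortest bin to -0.33 in the longest, while those of the other 4 treated mice stay between 0.06 and -0.08.

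The 10 lower and 10 higher genes of smallest p with a mean FPKM of at least 1, outside the genes that the study singled out, held 1 gene past the threshold with edgeR, Slc23a4, and 19 that did not pass it. On the lower side, Ptdss1, a phosphatidylserine synthase, had an FPKM of 42.96, 41.6, 44.2, 44.3 and 47.3 with water and 33.2, 38.3, 32.3, 36.2 and 34.9 with medium mDP PAC, with no overlap (log2 fold change -0.43, adjusted p = 0.0756 with edgeR and 0.000248 with DESeq2). Sgpl1, the lyase that ends the breakdown of sphingosine 1-phosphate, had 78.5, 65.8, 79.1, 85 and 91.4 and 58.98, 61.7, 41.6, 52.96 and 56.4, again without overlap (-0.65, adjusted p = 0.0756). Smpdl3b, a sphingomyelin phosphodiesterase-like protein of the cell surface, had a log2 fold change of -1.05 and a mean FPKM of 8.33 ± 2.00 against 16.2 ± 3.12 with water (SD, n = 5). Sec24d, a coat protein of vesicles that leave the endoplasmic reticulum, had a log2 fold change of -0.56 (adjusted p = 0.0875, and 0.0648 without mouse 3). The other genes on this side were Itpr3, Pgm1, Smad4, Prdm1 and Igsf23, with log2 fold changes between -0.68 and -0.32 and an adjusted p of 0.133 each. Without medium mDP PAC mouse 2 the edgeR test called Ptdss1 (adjusted p = 0.0407), Sgpl1 (0.0450), Smpdl3b (0.0276) and Sec24d (0.0461), and without water mouse 2 it called Sgpl1 (0.0445).

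On the higher side, Hoxc9, a homeobox gene of posterior identity, had the smallest adjusted p with all mice. Its FPKM was 0.38, 0.82, 0.56, 0.34 and 0.35 with water and 1.40, 1.01, 1.49, 1.44 and 1.79 with medium mDP PAC. The gene was weakly expressed in all mice, and all treated mice lay above all water mice (log2 fold change 1.44, standard error 0.25, adjusted p = 0.0756 with edgeR). It passed without water mouse 2 (adjusted p = 0.0152), without medium mDP PAC mouse 2 (0.0407) and with limma on log2(FPKM + 0.1) (0.0195), but not without mouse 3 (0.126). Reg4, a secreted lectin of enteroendocrine and secretory cells, had 61.6, 51.7, 35.5, 72.9 and 85.4 with water and 111, 115, 138, 96.6 and 131 with medium mDP PAC, likewise with no overlap (0.85, adjusted p = 0.133, 0.00181 with DESeq2). Slc25a4, an ADP/ATP carrier of the mitochondrial inner membrane, had a mean FPKM of 97.2 ± 6.54 against 60.2 ± 6.14 (SD, n = 5), and no treated mouse reached down to the water mice. Scg5, a chaperone of prohormone processing in endocrine and nerve cells, had a log2 fold change of 0.82. The others were Msantd3, Vav3, Khdrbs3, Tst, Emp2 and Nt5c3b, with log2 fold changes between 0.43 and 0.94. In all 10 genes of this side the treated mice lay above the water mice without overlap, as they did for 3.99% of all genes.

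**Figure D3:**
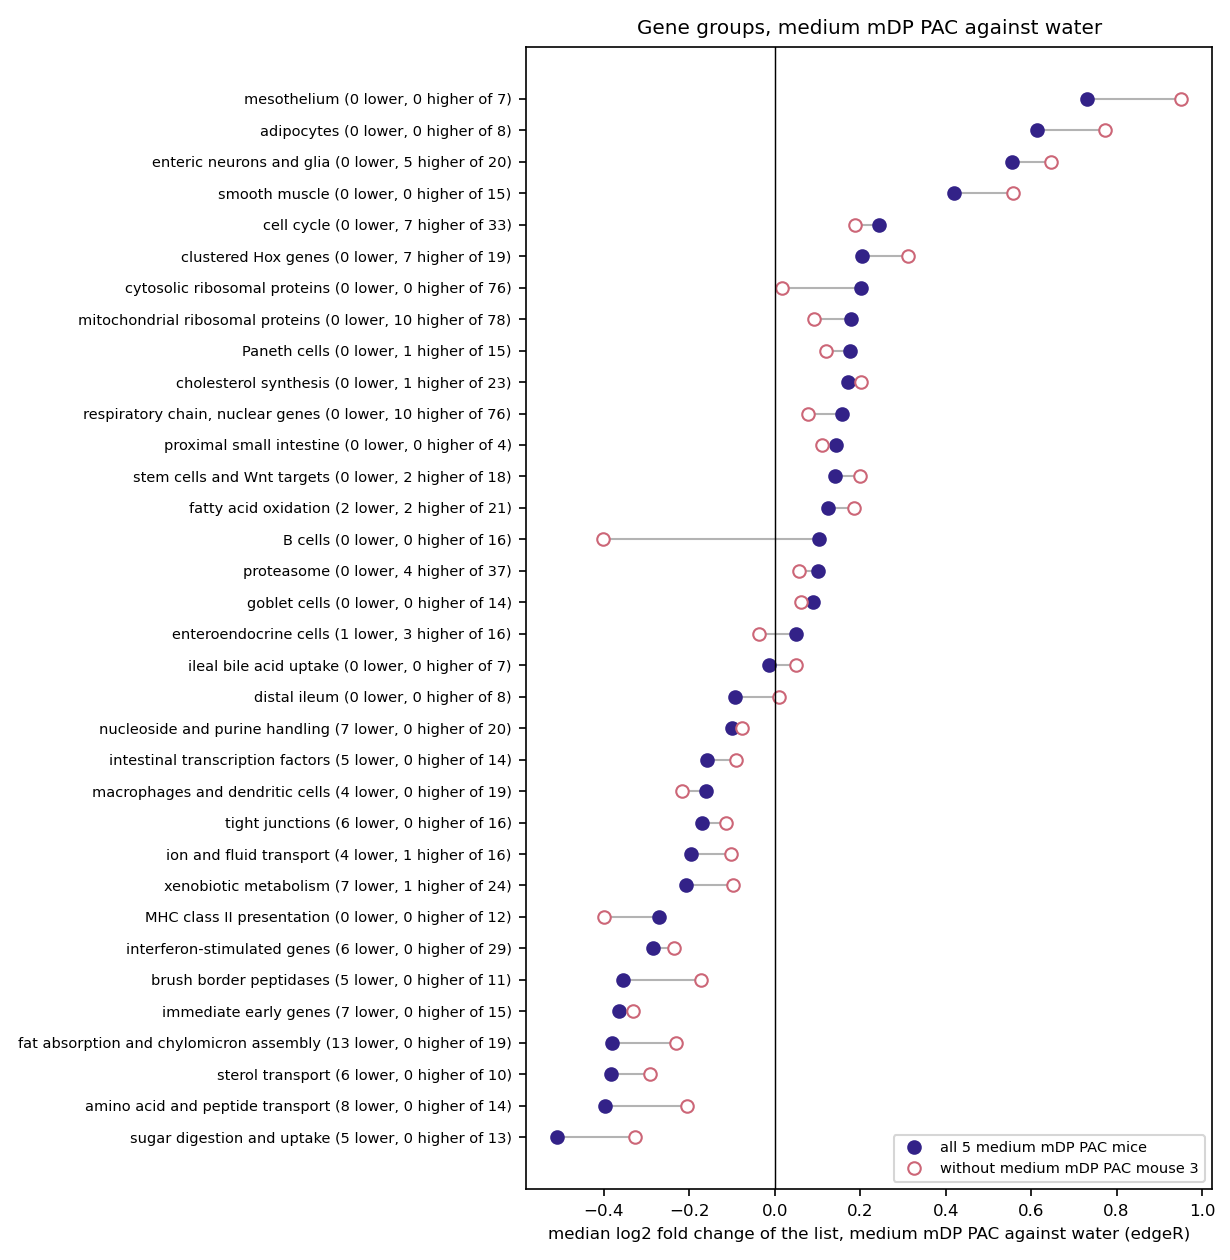
Median log2 fold change (x axis, medium mDP PAC over water) of 34 gene lists with at least 4 tested members, for all 5 treated mice (filled) and without medium mDP PAC mouse 3 (open). The lists of fat absorption, sterol transport, sugar, amino acids and peptidases lie left of 0 in both fits (fat absorption -0.38 and -0.23), and those of smooth muscle, enteric neurons and glia, mesothelium and adipocytes lie right of 0.

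Among the lists of nutrient absorption, those of fat, sterols, sugars, amino acids and peptides had negative medians with medium mDP PAC, while that of ileal bile acid uptake changed sign between fits. The member counts below are to be read against the nominal share of all genes in the same fit, which was 10.4% lower and 4.37% higher with all mice, 5.62% and 5.25% without mouse 3, and 4.51% and 3.23% without water mice 1 and 3. Of the 19 genes of fat absorption and chylomicron assembly, 13 were nominally lower and 0 higher, with a median log2 fold change of -0.38 beside 0.002 for all genes. Without mouse 3, 9 were lower and the median was -0.23, beside 0.01 for all genes. None passed the adjusted threshold with edgeR, and 3 did with DESeq2. Without water mice 1 and 3, 5 of the 19 were nominally lower, and the median was -0.30. The mean log2 level of the list was below all water mice in 3 of 5 treated mice. Treated mice 2 and 5 lay within the range of the water mice (-0.08 each, with water mouse 2 at -0.31).

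Mttp, the microsomal transfer protein that loads lipid onto nascent lipoproteins, had an FPKM of 356, 312, 399.8, 377 and 392 with water and 261, 311, 166, 306 and 289.7 with medium mDP PAC. The treated mice lay just below the water mice, and mouse 3 was the lowest (log2 fold change -0.55, adjusted p = 0.201 with edgeR, and -0.38 without mouse 3). Apob, the structural protein of the chylomicron, had 438, 449.6, 428, 351 and 410.3 with water and 315, 322, 105, 340.0 and 300.2 with medium mDP PAC. No treated mouse reached the water mice, but the log2 fold change moved from -0.68 to -0.43 without mouse 3, which was far below its group mates. Gpat3, which starts triglyceride synthesis from glycerol 3-phosphate, had a mean FPKM of 42.8 ± 5.52 against 52.3 ± 3.01 (SD, n = 5) with no overlap. Apoa1, an apolipoprotein of chylomicrons and HDL, had 5449, 3383, 4569, 4682 and 4960.1 with water and 3380.0, 3811, 3263, 3408 and 3584 with medium mDP PAC. Here only 2 treated mice were below all water mice, as water mouse 2 was itself low (log2 fold change -0.50).

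Of the 10 sterol transport genes 6 were nominally lower (10.4% of all genes), and 4 without mouse 3 (5.62% of all genes), against 0 higher in both, and the median was -0.38 (-0.29 without mouse 3, -0.27 without water mice 1 and 3). The mean log2 level of the list was below that of the lowest water mouse in 5 of 5 treated mice. Beside Npc1l1, Abcg5 and Abcg8 form the heterodimer that returns sterols to the lumen, the opposite direction of transport. Abcg5 had an FPKM of 131, 116, 119, 112 and 121 with water and 89.96, 95.1, 75.8, 104 and 93.5 with medium mDP PAC, without overlap (-0.48, adjusted p = 0.133 with edgeR and 0.00498 with DESeq2). The mean FPKM of Abcg8 was 41.7 ± 6.75 with medium mDP PAC and 54.7 ± 4.09 with water (SD, n = 5), with 4 of 5 treated mice below all water mice. The uptake protein and both subunits of the efflux pump were thus all at lower levels, and of these only Npc1l1 passed the adjusted threshold in any edgeR fit given here.

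Cholesterol synthesis and bile acid genes did not share this direction. Of 23 genes of the sterol pathway and its regulators, 20 had a log2 fold change above 0 with a median of 0.17 (0.20 without mouse 3), but only 1 was nominally higher, as against 4.37% of all genes. In water mouse 5 the summed FPKM over the 23 genes was 699 against 1030 to 1141 in the other water mice. Without that mouse the median was 0.05. The 7 genes of ileal bile acid uptake had a median of -0.01 and 0 were nominally higher or lower, but the median was 0.22 with 1 nominally higher without water mice 1 and 3, and leaving out 1 mouse gave -0.13 without water mouse 5 and 0.08 without water mouse 1. Fabp6 had 6321, 6831, 6739, 4307 and 4196 with water and 6352, 6362, 10619.9, 8047 and 7566 with medium mDP PAC, with overlap between the groups (log2 fold change 0.35, adjusted p = 0.356), and Fgf15, the hormone that ileal enterocytes release when bile acids are taken up, had a log2 fold change of -0.37 (adjusted p = 0.556), which was -0.22 without mouse 3 and near 0 without water mice 1 and 3. That of Fabp6 was 0.17 with the length trend removed and 0.55 without water mice 1 and 3.

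Of the 14 genes of amino acid and peptide transport, 8 were nominally lower and 0 higher (median -0.40), and 6 without mouse 3 (median -0.21), beside 10.4% and 5.62% of all genes lower. The mean log2 level of the list was below all water mice in 5 of 5 treated mice, but mouse 3 was at -1.09 relative to the water mean and the other 4 mice between -0.29 and -0.20. Slc36a1, a proton-coupled transporter of small amino acids, had an FPKM of 9.38, 9.73, 11.7, 17.8 and 15.8 with water and 8.45, 8.85, 5.41, 8.57 and 7.70 with medium mDP PAC, without overlap (-0.81, adjusted p = 0.133 with edgeR and 0.00494 with DESeq2). Slc15a1, the peptide transporter PepT1, had 204, 163, 242, 338 and 269.7 with water and 191, 217, 54.9, 126 and 145 with medium mDP PAC. Its groups overlapped, as treated mice 1 and 2 lay within the range of the water mice (-0.82, -0.58 without mouse 3). For Slc6a19, the main neutral amino acid transporter of the brush border, the log2 fold change of -0.37 came to -0.11 without mouse 3, whose FPKM of 65.1 stood apart from 207 to 239.8 in its group.

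Among brush border peptidases, with all mice, 5 of 11 tested members were nominally lower (median -0.35), and without mouse 3 again 5 (median -0.17). Their summed FPKM was 3569 in mouse 3 and 7000 to 7469 in the other treated mice, against 6800 to 8880 with water. Only 1 treated mouse, mouse 3, lay below all water mice in the mean log2 level of the list. Anpep, the aminopeptidase N, had 3489, 3155, 3822, 3746 and 2941 with water and 2883, 2797, 1216, 3057 and 2717 with medium mDP PAC. In 4 of the 5 treated mice Anpep was below all water mice, and mouse 4 was within their range. Its log2 fold change was -0.53, and -0.32 without mouse 3. In these fits Dpp4, the dipeptidyl peptidase that also cleaves incretins, had -0.48 and -0.29, and the metalloprotease subunit Mep1b -0.41 and -0.28. Without water mice 1 and 3 only 1 member was nominally lower.

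Sugar digestion and uptake had the lowest median of the absorption lists, -0.51 over 13 genes with 5 nominally lower and 0 higher (-0.33 and 3 without mouse 3). Slc5a1, the sodium-glucose cotransporter SGLT1, had 382, 414, 532, 545 and 417 with water and 400.5, 409.9, 191, 319.7 and 299.5 with medium mDP PAC. Treated mice 1 and 2 were within the water range and mice 3 to 5 below it (-0.59, adjusted p = 0.202 with edgeR and 0.0498 with DESeq2). The related carrier Slc5a9 was lower without overlap, at 5.98 ± 1.29 against 8.03 ± 0.872 FPKM (SD, n = 5). Sis, the sucrase-isomaltase, had a log2 fold change of -0.61 (-0.37 without mouse 3). Lct, the lactase, varied widely between mice. Its FPKM was 38.3, 15.2, 54.8, 80.5 and 92.7 with water and 10.7, 52.8, 2.68, 3.20 and 17.2 with medium mDP PAC, so that mice of 1 group differed more than the group means (log2 fold change -1.77, standard error 0.87, adjusted p = 0.352, and -2.84 without medium mDP PAC mouse 2).

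**Figure D4:**
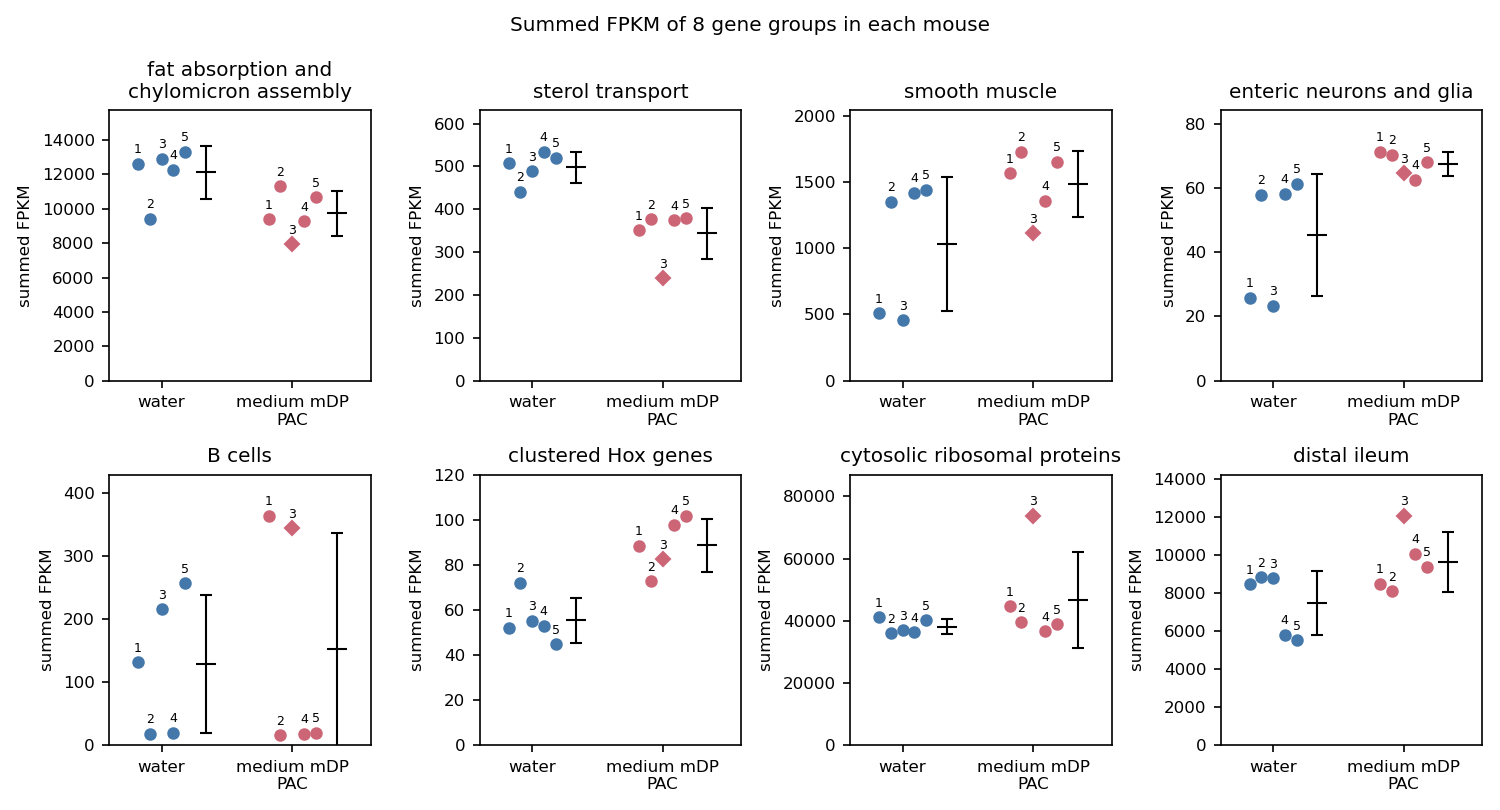
Summed FPKM of the members of 8 gene lists in each of the 10 mice (y axis starting at 0, where the bar of the B cell panel is cut off), with the mean and SD of each group. Medium mDP PAC mouse 3 is the lowest treated mouse for sterol transport (239) and fat absorption and the highest for cytosolic ribosomal proteins (73729), and water mice 1 and 3 are the lowest for smooth muscle.

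The list of nucleoside and purine handling, from which Slc28a2 was left out as a gene of the study, held Slc23a4 and 19 other tested genes. Of the 20, 7 were nominally lower and 0 higher, and the median was -0.10 (-0.05 without water mice 1 and 3), with 14 members below 0 and 6 above. Without mouse 3 there were 6 lower and 1 higher, and without water mice 1 and 3 there were again 6 and 1. Ada, adenosine deaminase, which converts adenosine to inosine, had an FPKM of 87.7, 46.2, 67.5, 67.95 and 109 with water and 34.5, 39.3, 59.2, 40.6 and 44.1 with medium mDP PAC. In 4 of the 5 treated mice it was below all water mice, and mouse 3 was the exception (log2 fold change -0.89, adjusted p = 0.142 with edgeR and 0.00498 with DESeq2, and -0.98 without mouse 3). Nt5e, the ectoenzyme CD73 that makes adenosine from AMP outside the cell, had 18.7, 13.1, 13.8, 10.96 and 20.4 with water and 9.94, 8.45, 11.1, 11.4 and 8.98 with medium mDP PAC (-0.72, adjusted p = 0.133 and 0.00515). Slc28a2, which takes up adenosine, Nt5e, which makes it outside the cell, and Ada, which converts it, thus all had lower mean levels, and of these only Slc28a2 passed the adjusted threshold with edgeR. The mean level of Slc29a1, an equilibrative nucleoside transporter of the same list, was higher, at 14.8 ± 0.728 against 12.1 ± 1.72 FPKM (SD, n = 5, log2 fold change 0.19, adjusted p = 0.350 with edgeR), with 4 of 5 treated mice above all water mice, and it was the gene nominally higher without mouse 3.

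For ion and fluid transport 4 of 16 genes were nominally lower and 1 higher (4 and 0 without mouse 3), beside 10.4% and 4.37% of all genes (5.62% and 5.25%), with a median of -0.20 (-0.10 without mouse 3 and -0.11 without water mice 1 and 3). Slc4a4, the basolateral sodium bicarbonate cotransporter, had 24.97, 28.8, 29.4, 29.7 and 28.2 with water and 21.2, 20.96, 15.6, 24.5 and 20.6 with medium mDP PAC, without overlap (-0.55, adjusted p = 0.133 with edgeR). Slc9a3, the apical sodium-proton exchanger NHE3, had 3.55, 2.74, 5.38, 7.07 and 8.32 with water and 1.83, 2.91, 0.77, 3.67 and 1.97 with medium mDP PAC (log2 fold change -1.36 with a standard error of 0.34, adjusted p = 0.18). Water mice 1 and 2 were within the treated range. Clca4a, of the family of chloride channel regulators, had a mean FPKM of 196 ± 68.4 against 346 ± 64.1 (SD, n = 5). Of 24 genes of xenobiotic metabolism 7 were nominally lower and 1 higher (median -0.21), and 6 and 1 without mouse 3 (median -0.10, and -0.13 without water mice 1 and 3), beside the same shares. Cyp3a13, a cytochrome P450, had log2 fold changes of -0.61 and -0.44 in these fits. For the related Cyp3a11 the water mean of 25.2 ± 18.3 (SD, n = 5) rested on mouse 5 with 57.8, while the other water mice had 14.4 to 20.98 and the treated mice 8.23 to 15.7.

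Of 14 tested transcription factors of the intestinal epithelium 5 were nominally lower and 0 higher, but 1 without mouse 3 and 1 without water mice 1 and 3, and the median was -0.16 (-0.09 without mouse 3). Hnf4g, which with Hnf4a maintains enterocyte gene expression, had 157, 156, 175, 140.3 and 156 with water and 121, 138, 98.4, 137 and 141 with medium mDP PAC (-0.40, adjusted p = 0.275). Hnf4a itself had a log2 fold change of -0.25. The mean FPKM of Gata6 was 26.3 ± 0.98 against 29.4 ± 1.73 (SD, n = 5, -0.26). Gata4, a factor of the proximal small intestine that the study singled out, is given here after its values were seen. It had 4.58, 1.69, 4.04, 12.5 and 12.7 with water and 0.58, 4.23, 0.75, 0.72 and 0.39 with medium mDP PAC. It was low in 4 treated mice and not in mouse 2, and the water mice ranged from 1.69 to 12.7 (log2 fold change -2.48, standard error 0.76, adjusted p = 0.211). Water mice 4 and 5, the highest for Gata4, had the lowest summed FPKM of distal ileum genes (5802 and 5502). Lists of proximal genes (median 0.14, 4 tested) and distal ileal genes (median -0.09, 8 tested) had 0 nominal members in either direction with all mice. Without water mice 1 and 3 the medians were 0.08 with 1 nominally lower and 0.06 with 1 nominally higher, and leaving out 1 mouse gave 0.03 without medium mDP PAC mouse 5 and 0.20 without medium mDP PAC mouse 1 for the proximal and -0.18 without water mouse 5 and 0.01 without medium mDP PAC mouse 3 for the distal list. The mean log2 level of the proximal list went the other way from its median, at -0.64, 0.05, -0.84, -0.64 and -0.06 in medium mDP PAC mice 1 to 5 relative to the water mean.

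Clustered Hox genes, which set position along the gut in epithelium and wall, had mostly log2 fold changes above 0 (17 of 19 tested members). Nominally higher were 7 members with all mice and 7 without mouse 3, against 4.37% and 5.25% of all genes, and 0 were lower in both. The median was 0.20 with all mice, 0.31 without mouse 3 and 0.11 without water mice 1 and 3, where 6 members were nominally higher and 1 lower, and it was 0.11 without medium mDP PAC mouse 2 and 0.13 without mouse 5. Hoxb8 had 3.09, 4.08, 3.23, 1.57 and 1.49 with water and 5.61, 3.84, 6.19, 7.40 and 7.41 with medium mDP PAC (1.08, adjusted p = 0.185 with edgeR). In 4 of the 5 treated mice Hoxb8 was above all water mice, and mouse 2 was not. Hoxb3 had a mean FPKM of 7.07 ± 1.82 against 4.04 ± 1.14 (SD, n = 5), with the same 4 mice above all water mice. Water mice 4 and 5, the lowest for Hoxb8, were also the lowest for the summed distal ileum genes (5802 and 5502) and the highest for Gata4. Treated mouse 2, the lowest treated mouse for Hoxb8, was the highest of its group for Gata4 (4.23). The part that the position of the pieces has in the Hox values was not tested. With low mDP PAC the means were 5.19 ± 1.43 for Hoxb8, 6.92 ± 0.996 for Hoxb3 and 1.10 ± 0.197 for Hoxc9 (SD, n = 5).

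**Figure D5:**
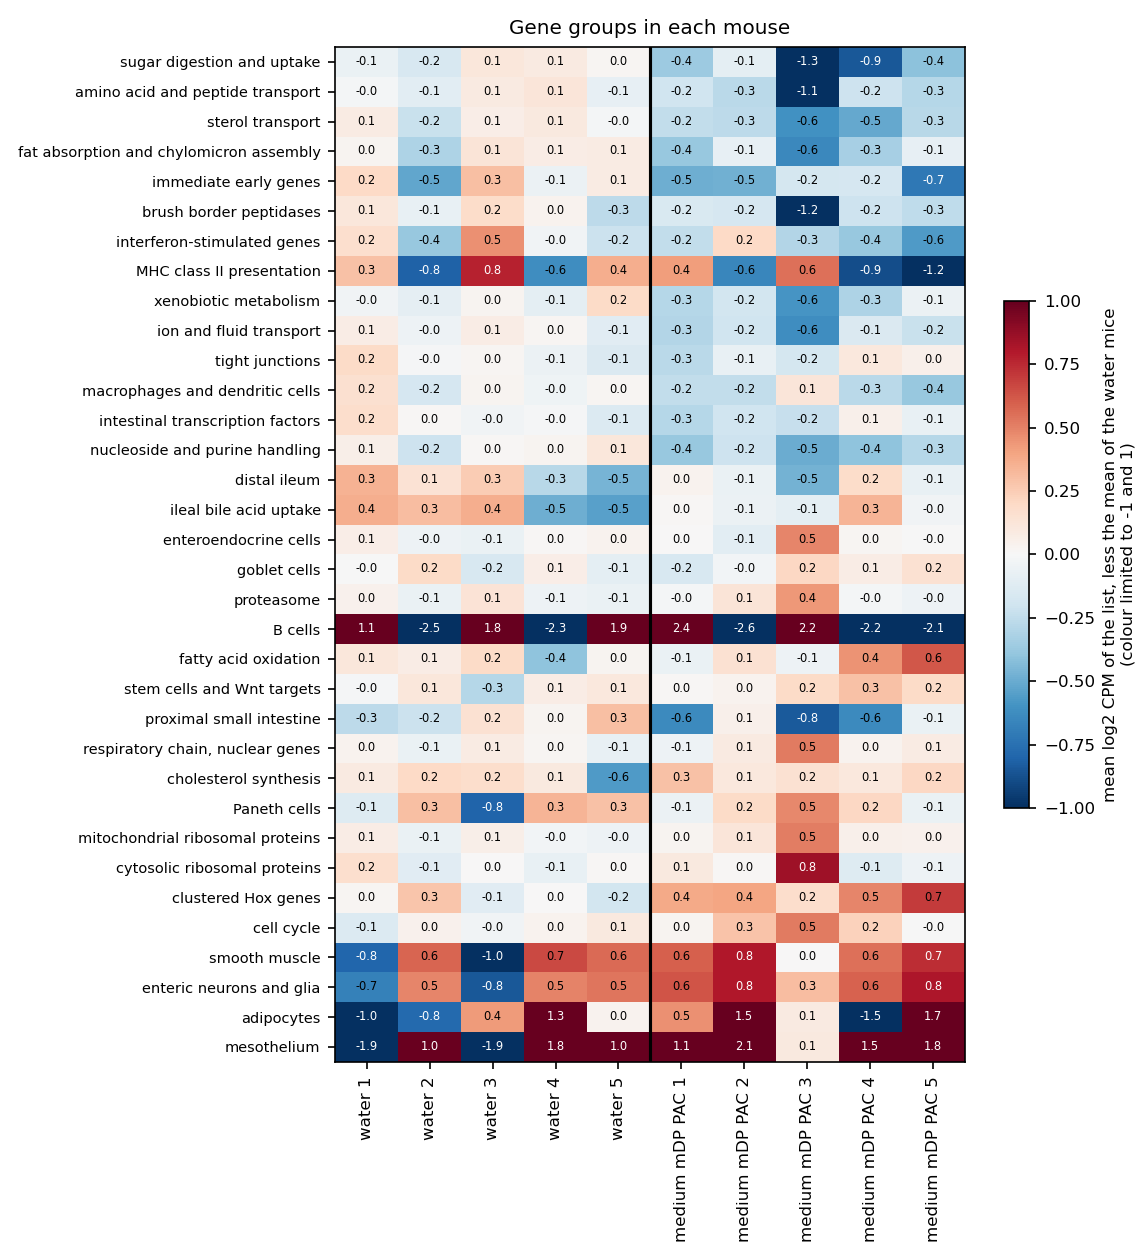
Mean log2 CPM of each gene list in each of the 10 mice less the mean of the water mice (colour scale limited to -1 and 1), with mice in columns and lists in rows. The columns of medium mDP PAC mouse 3 (blue for absorption lists, red for ribosomal lists) and of water mice 1 and 3 (low for muscle, nerve and mesothelium) differ from those of their group mates, and B cell genes follow single mice in both groups.

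Fatty acid oxidation had a positive median (0.13 over 21 genes, 0.19 without mouse 3, 0.21 without water mice 1 and 3, 0.05 without water mouse 4, 0.08 without medium mDP PAC mouse 4 and -0.01 without mouse 5) with 2 genes nominally higher and 2 lower, and 3 and 0 without mouse 3. Cyp4a10, a fatty acid hydroxylase that responds to PPARα, was close to 0 with water, at 0.06, 0.30, 0.14, 0.03 and 0.03 FPKM, and stood at 0.96, 0.76, 0.29, 0.89 and 2.61 with medium mDP PAC. All treated mice but mouse 3 were above all water mice, and mouse 5 was far above the others (log2 fold change 3.20, standard error 0.90, adjusted p = 0.193 with edgeR). Acaa2, the mitochondrial thiolase of the last step of beta-oxidation, had 72.2, 65.4, 69.4, 54.5 and 66.97 with water and 80.4, 81.9, 105, 78.9 and 102 with medium mDP PAC, without overlap (0.35, adjusted p = 0.214, and 0.0462 with DESeq2).

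Of 33 cell cycle genes 32 had a log2 fold change above 0 (median 0.25), and 7 were nominally higher and 0 lower, beside 4.37% of all genes higher. Only 2 were nominally higher without mouse 3 (median 0.19, 5.25% of all genes) and 1 without water mice 1 and 3 (median 0.19, 3.23% of all genes), shares near those of all genes. Upper-quartile normalization gave 16, beside 10.5% of all genes. Cdc20, an activator of the anaphase-promoting complex, had 12.9, 13.4, 12.5, 14.7 and 14.7 with water and 14.8, 19.8, 24.9, 18.7 and 16.5 with medium mDP PAC, with every treated mouse above the water mice, mouse 1 by the smallest margin (0.38, adjusted p = 0.234). Kif20a, a kinesin of cytokinesis, had a log2 fold change of 0.37. Of 18 stem cell and Wnt target genes 2 were nominally higher and 0 lower (median 0.14), among them Cdca7 at 0.30, and 1 was without water mice 1 and 3 (median 0.03). Paneth cell genes had a median of 0.17 over 15 genes with 1 nominally higher, but of -0.06 with 4 nominally lower without water mice 1 and 3. Goblet cell genes had a median of 0.09 over 14 genes (0.03 without water mice 1 and 3) with 0 nominal in either direction. Of 16 enteroendocrine genes 3 were nominally higher and 1 lower (median 0.05), and 2 and 2 without mouse 3 (median -0.04), and 3 and 0 without water mice 1 and 3 (median 0.10). The hormone genes Gcg, which encodes glucagon-like peptides, and Sst, which encodes somatostatin, lay above all water mice in every treated mouse, Gcg with 48.5, 46.1, 82.2, 53.6 and 57.7 against 43.9, 40.4, 35.6, 37.8 and 39.1 with water, but mouse 3 was the highest in both and their log2 fold changes were 0.45 and 0.39 with all mice and 0.33 and 0.26 without it.

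Lists of short housekeeping genes had positive medians that were smaller without mouse 3. The 76 cytosolic ribosomal protein genes, with a median length of 719 bases, all had log2 fold changes above 0 (median 0.20), with 0 nominally higher or lower, and the median was 0.02 without mouse 3 and -0.04 without mouse 3 and the length trend. Their summed FPKM was 73729 in mouse 3 and 36610 to 44724 in the other treated mice, against 36069 to 41203 with water. Of 76 nuclear genes of the respiratory chain 10 were nominally higher and 0 lower (median 0.16), 5 without mouse 3 (median 0.08) and 1 once the length trend was removed (median 0.03), beside 4.37%, 5.25% and 5.69% of all genes higher, so that the share without mouse 3 was near that of all genes. Upper-quartile normalization gave 38, beside 10.5% of all genes. Ndufs3, a core subunit of complex I, had 74.5, 71.01, 78.9, 74.02 and 80.4 with water and 84.3, 92.4, 121, 85.2 and 91.3 with medium mDP PAC. The treated mice other than mouse 3 lay just above the water mice. Of 78 genes of mitochondrial ribosomal proteins 10 were nominally higher, 7 without mouse 3, 8 with the length trend removed and 33 with upper-quartile normalization (medians 0.18, 0.09 and 0.09 in the first 3 fits). One of them was Mrps33, at 23.5 ± 4.35 against 17.5 ± 0.642 FPKM (SD, n = 5). For the proteasome 4 of 37 tested genes were nominally higher, 6 without mouse 3, 8 without water mice 1 and 3 (medians 0.10, 0.06 and 0.19) and 16 with upper-quartile normalization, Psmd12 among them (0.22, adjusted p = 0.20 with edgeR and 0.0271 with DESeq2). The 13 protein genes of mitochondrial DNA were not in the tables used here.

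Immediate early genes, which are transcribed within minutes of a stimulus, mostly had log2 fold changes below 0 (14 of 15). Of the 15 genes 7 were nominally lower and 0 higher, with all mice and without mouse 3 alike, and 4 without water mice 1 and 3 (medians -0.37, -0.33 and -0.27), beside 10.4%, 5.62% and 4.51% of all genes lower. In the mean log2 level of the list only 1 treated mouse, mouse 5, was below all water mice, as water mouse 2 was itself low (-0.52 relative to the water mean). Fos had 41.97, 33.9, 68.98, 69.9 and 35.9 with water and 11.7, 32.6, 22.7, 43.8 and 11.2 with medium mDP PAC, and 4 of 5 treated mice were below all water mice (-1.13, standard error 0.36, adjusted p = 0.225). Zfp36, which binds and destabilizes cytokine mRNAs, had 89.4 ± 10.1 against 113 ± 13.3 FPKM (SD, n = 5, log2 fold change -0.43). For Fosl2 the log2 fold change was -0.50, and for Btg2, an antiproliferative factor, -0.36 with every treated mouse below the water mice.

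The counts of the immune lists, which stand beside 10.4% of all genes nominally lower (5.62% without mouse 3 and 4.51% without water mice 1 and 3), depended on which mice were in the fit. Of 29 interferon-stimulated genes 6 were nominally lower and 0 higher (median -0.28), but 3 without mouse 3 and 1 without water mice 1 and 3 (median 0.02). Oas3, a sensor of double-stranded RNA, had a log2 fold change of -0.67 (adjusted p = 0.193 with edgeR). The 12 genes of MHC class II presentation had a median of -0.27 with 0 nominal, of -0.40 with 4 nominally lower without mouse 3, and of -0.05 with 0 without water mice 1 and 3. These mice were among those with high B cell genes, whose own median moved from 0.10 to -0.40 and 0.57 in the 3 fits. With limma-voom in place of edgeR the B cell median was -0.53 with all mice. Leaving out 1 mouse gave MHC class II medians of -0.44 without medium mDP PAC mouse 1 and -0.13 without water mouse 3, and B cell medians of -0.48 without medium mDP PAC mouse 1 and 0.46 without water mouse 5. The part of B cells in the MHC class II values was not tested. Macrophage and dendritic cell genes were nominally lower in 4 of 19 cases, 6 without mouse 3 and 2 without water mice 1 and 3 (median -0.16). Itgax, which encodes the integrin CD11c of dendritic cells, had a log2 fold change of -0.47. Of 11 tested inflammatory cytokine genes 2 were nominally lower, 3 without mouse 3 and 2 without water mice 1 and 3, with 0 higher (medians -0.16, -0.32 and 0.01). The lowest log2 fold change among them was that of Il18, a cytokine that is also made by epithelium. It had 20.6, 35.7, 29.02, 31.7 and 26.03 with water and 18.8, 17.3, 20.1, 21.3 and 14.4 with medium mDP PAC, below all water mice in 4 of 5 mice (-0.73, adjusted p = 0.221).

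Mast cell genes were weakly expressed. Of the 8 genes of the list, 3 were tested and 2 of these were nominally lower, Mcpt1 and Mcpt2, the chymases of mucosal mast cells. Mcpt2 had 0.32, 0.90, 0.13, 5.54 and 1.09 FPKM with water and 0.13, 0.13, 0.52, 0.38 and 0.06 with medium mDP PAC (log2 fold change -2.76, standard error 0.87, adjusted p = 0.217). Mcpt1 had 0.60, 1.69, 0.60, 8.22 and 1.33 and 0.50, 0.36, 1.78, 0.42 and 0.36. Water mouse 4 was far above all other mice for both genes, and without it the median of the 3 genes moved from -1.96 to -0.71. Tight junction genes were nominally lower in 6 of 16 cases with all mice but in 1 without mouse 3 and 0 without water mice 1 and 3 (medians -0.17, -0.11 and -0.07), among them Ocln, the junction protein occludin, with a log2 fold change of -0.22 (-0.13 without mouse 3).

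Of the lists of the intestinal wall, those of smooth muscle, enteric neurons and glia, mesothelium and fat cells had positive medians with medium mDP PAC, which were smaller or near 0 without water mice 1 and 3, while fibroblast and endothelial genes had medians of -0.06 each (-0.19 and 0.01 without water mice 1 and 3, and from -0.18 to 0.04 and from -0.14 to -0.03 with 1 mouse left out). All 15 smooth muscle genes had a log2 fold change above 0 (median 0.42) with 0 nominally higher. Myh11, smooth muscle myosin, had 46.3, 156, 41.95, 168 and 165 with water and 183, 199, 90.5, 155 and 188 with medium mDP PAC. Water mice 1 and 3 and treated mouse 3 were low and the other 7 mice alike. The log2 fold change of Myh11 was 0.42, and -0.06 without water mice 1 and 3, and the median of the list was then -0.02. Of 20 genes of enteric neurons and glia 5 were nominally higher and 0 lower, with all mice and without mouse 3 (medians 0.55 and 0.65), and 0 without water mice 1 and 3 (median 0.13). Tubb3, a neuronal tubulin, had a log2 fold change of 0.79, and the glial gene S100b 0.77. These were 0.29 and 0.38 without water mice 1 and 3. Mesothelial genes had a median of 0.73 over 7 genes (0.16 without water mice 1 and 3, with 1 mouse left out 0.47 without medium mDP PAC mouse 2 and 1.40 without water mouse 4, and 1.90 with limma-voom), and Upk3b, their defining gene, was missing from the files of water mice 1 and 3 and taken as 0. Fat cell genes had a median of 0.61 over 8 genes with 0 nominal (0.37 without water mice 1 and 3, and with 1 mouse left out 0.21 without medium mDP PAC mouse 5 and 0.98 without water mouse 4), and their summed FPKM ranged from 108 to 992 among the treated mice alone. With all 10 mice, the amount of wall and fat in a piece and the treatment cannot be told apart for these genes.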

How the data were processed

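Total RNA of 10 ileum pieces (5 water and 5 medium mDP PAC mice) was analysed, and the 5 low mDP PAC mice entered the model for the spread between mice. By the study's methods, the authors filtered BGISEQ-500 reads with SOAPnuke and mapped them to mm10 with Bowtie2. The submitters' processing notes name HISAT and DESeq2 instead, and the counting tool is not given in the sources used here. For each gene the authors deposited an expected count, the estimated number of fragments, which is not normalized. The deposited FPKM values were scaled by the authors for gene length and mapped fragments and were listed from 0.01 upward. Genes missing from a file were taken as 0.

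After rounding, expected counts were tested in edgeR 4.0.16 (R 4.3.3) by a quasi-likelihood model of 15 mice with TMM factors, filterByExpr and the robust option off, with Benjamini-Hochberg adjustment over the 14386 genes kept. With totals of 16402514 to 17903886 per mouse, counting error is larger for weakly expressed genes. Standard errors were derived from the test statistic. For single genes, log2(FPKM + 0.1) was permuted between the groups over all splits (two-sided, exact). The edgeR fit, plain and with the length trend removed, was also run on simulated counts, and the outcome is not reported here. P-values measure the spread between these libraries.

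Alternatives were DESeq2 1.42.0, limma 3.58.1 on voom weights or on log2(FPKM + 0.1 or 1), other normalizations and filters, a robust fit, a model of 10 mice, mouse number as a blocking term, removal of each mouse's length trend (a natural spline with 5 degrees of freedom, as edgeR offsets), and leaving out each mouse. The gene lists, members and alternatives were chosen with earlier results of these data known. Named genes were those with an adjusted p under 0.05 with or without medium mDP PAC mouse 3, the 10 higher and 10 lower genes of smallest p with a mean FPKM of at least 1 outside the 26 study genes and predicted genes, and from each list the first 2 tested members and the 3 of smallest p. Some genes that this rule names are not reported here. Genes named outside this rule are marked as chosen after their values were seen. Gene coordinates are from GENCODE (GRCm38), promoter windows from RefSeq (GRCm38.p6). All 3 genes looked up had a window. A list level is the mean log2 CPM of its members less the mean of the water mice. DESeq2 gave no adjusted p to genes under its own count filter, which included Slc23a4.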

Additional observations from a re-analysis of the deposited data

Results flagged for a closer look

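In 240 groups of 5 mice (the values of the named genes and lists in each group), the highest or lowest mouse was taken as standing apart where its gap to the nearest mouse, as a share of the range of the group, exceeded Dixon's 95% critical value for 5 mice (0.71). Chance alone gives about 1 in 20 groups. In 33 groups a mouse stood apart, and in 23 of them it was medium mDP PAC mouse 3.

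In medium mDP PAC mouse 3 the slope on gene length was -0.230 (the other treated mice -0.0230 to 0.0185) and the FPKM values summed to 677075. Its summed FPKM was low for sterol transport (239, others 351 to 379), amino acid and peptide transport (621), brush border peptidases (3569) and xenobiotic metabolism (1922). It was high for stem cells and Wnt targets (579), goblet cells (18643, others 10531 to 12642), enteroendocrine cells (511), cytosolic ribosomal proteins (73729), mitochondrial ribosomal proteins (3039.8), the respiratory chain (19205) and the proteasome (2934). Among single genes the mouse was low for Npc1l1 (51.4), Sec24d (23.3), Apob (105, others 300.2 to 340.0), Anpep (1216), Slc7a9, an amino acid transporter subunit (119), and Slc6a19 (65.1). It was high for Mcpt1 (1.78), Cdca7 (31.6), Mrps33 (31.2) and Ndufs3 (121).

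In the other 10 groups, water mouse 5 stood apart for Slc28a2 (65.7, others 48.7 to 52.3), Cyp3a11 (57.8) and the summed cholesterol synthesis genes (699), water mouse 2 for the summed fat absorption genes (9434) and for Tst (17.3), and water mouse 4 for Mcpt1 (8.22) and Mcpt2 (5.54). Medium mDP PAC mouse 2 stood apart for Lct (52.8, others 2.68 to 17.2) and Gata4 (4.23, others 0.39 to 0.75), and mouse 5 of that group for Cyp4a10 (2.61, others 0.29 to 0.96).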

How the results depend on the processing

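Slc28a2 and Slc23a4 passed the adjusted threshold in every edgeR and limma fit tried except the one without water mice 1 and 3, which was chosen after seeing the data, called 0 genes and left 657 nominally lower. DESeq2 called 167 genes but gave Slc23a4 no adjusted p. A model of only the 10 mice called 4 genes, with Slc25a4 and Aldh1a3 (named after its values were seen), and limma on log2(FPKM + 0.1) and on log2(FPKM + 1) called 9 each. Without single mice the count ranged from 2 to 11, with 11 without medium mDP PAC mouse 2 and 4 without water mouse 2, Hoxc9 and Sgpl1 among both. Of nominal genes, 1505 were higher and 816 lower with upper-quartile normalization, 2269 and 528 with limma on log2(FPKM + 0.1), and 2256 and 531 with a pseudocount of 1. With no filter on low counts 1100 were higher. Without single mice between 496 and 759 were higher and between 813 and 1706 lower, the fewest lower without medium mDP PAC mouse 3, and 810 were lower without it and the length trend (chosen after seeing the data). The numbers of the mice are the same in each group, but same-numbered mice did not deviate together in all pairs (Pearson r across genes of 0.113, 0.321, 0.445, 0.080 and -0.216, over 0.1 in 3 of 5), so the pairing was not used. With the replicate block 2 genes changed, 562 were nominally higher and 1278 lower, and with the block and the length trend removed 904 were lower. The slope on gene length was -0.0826 when genes under a mean FPKM of 5 were left out (two-sided exact permutation p = 0.0238), and without single mice it ranged from -0.0688 to -0.0066. Without water mice 1 and 3 the log2 fold changes of Myh11 and of Actg2, smooth muscle actin, turned to -0.0642 and -0.0174. Causes of these differences were not tested. Of the recomputed log2 fold changes of 83 genes described here, 1991 kept their direction and side of the threshold, 49 came to pass it (most with DESeq2), 2 lost it and 2 changed direction. Of all 268 genes that the naming rule gives, 48 changed sign in at least 1 fit, with a median size of 0.09 on the log2 scale with all mice, and 46 of these are not among the 83.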

Other observations

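Some lists had few nominal members and are given here as values of the same test, beside 10.4% of all genes nominally lower and 4.37% higher (5.62% and 5.25% without medium mDP PAC mouse 3). Of 16 Nrf2 target genes 2 were nominally lower and 0 higher (median log2 fold change -0.03, and 0.00 without water mice 1 and 3), of 5 tested aryl hydrocarbon receptor targets 1 was lower, and of 9 iron handling genes 2 were lower and 0 without medium mDP PAC mouse 3. Rbp2, the retinol carrier of enterocytes, was nominally lower at 273 ± 51.2 against 366 ± 55.6 FPKM with water (SD, n = 5, log2 fold change -0.52), while Bco1, which cleaves beta-carotene, was nominally higher at 2.69 ± 0.831 against 1.47 ± 0.593 FPKM (SD, n = 5, log2 fold change 0.78), and the 10 retinoid genes had a median of -0.02. Of 18 circadian clock genes 0 were nominal in either direction (median -0.14, 0.00 without mouse 3 and -0.33 without medium mDP PAC mouse 1). Of 19 genes of the unfolded protein response 4 were lower (median -0.10, and -0.01 without water mice 1 and 3), and of 11 heat shock genes 0. Of 18 genes of Toll-like receptor signaling and NF-kB 3 were lower and 0 higher, and 1 and 1 without mouse 3. Of 19 T cell and intraepithelial lymphocyte genes 2 were lower, about the share of all genes (median -0.19, -0.37 without mouse 3, 0.02 without water mice 1 and 3 and 0.00 without water mouse 3 alone). Fibroblast and endothelial lists, of 18 and 13 genes, had 1 gene nominal in each direction, and their medians of -0.06 each changed to 0.04 without water mouse 4 and to -0.14 without medium mDP PAC mouse 5.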
